A study of Homo sapiens with 12 samples.

Results

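Human U2OS cells, an osteosarcoma cell line, were transfected with siRNA against DBP5, GLE1 or IPPK, or with a control siRNA, and RNA of their cytoplasmic fraction was measured on one-colour arrays. The 9 arrays of knocked-down cells, 3 for each siRNA, were taken as one side with equal weight for each siRNA, and the 3 arrays of control siRNA as the other, so that all 12 arrays of the series were used. Per the sample labels and the methods, each siRNA was given at 20 nM with Lipofectamine2000, and the RNA was taken after 48 h from the part of the cells that an NP40 lysis buffer releases. The cells differed in the siRNA and in no other agent that the labels name, and all 4 groups shared the line, the medium, the transfection reagent and the lysis. The comparison asked which genes, and which processes, had a changed cytoplasmic RNA level in the same direction in all 3 knock-downs, and whether by similar amounts.

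All 3 targets act in the export of mRNA. DBP5, whose gene is listed as DDX19B, is a DEAD-box ATPase that sits on the cytoplasmic face of the nuclear pore and removes export proteins from mRNA that comes through. GLE1 binds DBP5 and stimulates its ATPase, with inositol hexakisphosphate (IP6) held between both proteins, and IPPK is the kinase that makes IP6 in the cell. A cytoplasmic RNA level depends on synthesis, export and decay of the RNA, which these arrays do not separate.

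The study lists 1 siRNA for DBP5 and 2 each for GLE1 and IPPK, and the labels do not say which of the 2 was put on the arrays. Their antisense strands, which carry the target specificity, are shown so that they can be compared between the knock-downs. Bases 2 to 8 from the 5′ end of each strand as listed are in capitals.
DBP5 siRNA 1: aGCCUCAUccagaacaaacaccuugau
GLE1 siRNA 1: uUCUCUUGgugucccaaggcuucuc
GLE1 siRNA 2: gUUGAGAAucuuugcucugugacggug
IPPK siRNA 1: uUGCUGAUcugcuuccacuucccaguu
IPPK siRNA 2: aAUAAACCcacauuuuggcuu
All 5 stretches in capitals differ from each other. The listed strands are 21 to 27 bases long, and whether these stretches act as the seed in the cell was not tested. The study also lists 2 control siRNAs, and the labels, which give the 3 control arrays as 1 group, do not say which was used. The same 3 control arrays stand in every contrast, so an effect of the control siRNA on its own cannot be told apart from a response shared by the knock-downs. The array of the control siRNA also lay at the same position on each of the 3 slides, as did those of the other siRNAs, and the position and the siRNA cannot be told apart either. The methods call the 3 array experiments independent, but the sources do not say whether the 3 arrays of a group came from separate transfections. The p-values measure the spread between these arrays, which may be technical.

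An array carried 43118 spots, and 72.6% to 79.0% of the probes were well above background. The IPPK siRNA arrays, at 72.6% to 75.4%, lay at the lower end. After normalization, 20821 genes were tested, each through its brightest probe, and 18420 of them were well above background on all 12 arrays. Means of normalized log2 intensities were subtracted, and the difference is printed as a linear ratio to control. Its SD is that of the 3 arrays of a siRNA, each set against the mean of the control arrays. Where 3 ratios stand together without further words, they belong to DBP5, GLE1 and IPPK siRNA in this order. The pooled ratio gives each siRNA the same weight. Of 13 mesenchymal and osteosarcoma markers tested, 12 were well above background on all 12 arrays, among them VIM, SPARC, COL1A1 and RUNX2. In the pooled contrast 3 of the 13 passed as lower and 3 as higher, and 8 differed among knock-downs by the F test (23.1%, 23.1% and 61.5%, against 30.4%, 29.0% and 70.9% of all genes tested). Of 6 haematopoietic markers, 4 were well above background on all arrays, and 0 passed the test in the pooled contrast in either direction. Of 10 epithelial markers, 9 were well above background on all arrays, 3 passed as lower and 2 as higher. By the F test 9 of the 10 differed among knock-downs (90%), with median ratios of 0.947, 1.43 and 0.704. Of 5 long non-coding RNAs listed as nuclear, of which GAS5 and SNHG1 are also found in the cytoplasm, all 5 differed among knock-downs by the F test, with median ratios of 0.766, 1.55 and 0.771. Among them MALAT1 passed as lower, with ratios of 0.689, 0.809 and 0.472 (pooled limma adjusted p = 0.0197), and KCNQ1OT1 passed as higher, with its second probe, well above background on 4 arrays, at 0.848. MALAT1 lost the call without control array 1 or 2 or without the IPPK siRNA arrays (adjusted p = 0.0609, 0.0807 and 0.0904). The part of carried-over nuclear RNA in the results was not tested.

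The targets were checked first. DDX19B (NM_007242) was at 0.0663, 0.0634 and 0.0633 of control on the 3 DBP5 siRNA arrays. GLE1 (NM_001499) was at 0.137, 0.0924 and 0.0846 on the GLE1 siRNA arrays, and IPPK (NM_022755) at 0.182, 0.181 and 0.195 on the IPPK siRNA arrays. Each target was thus lowest in the knock-down that carries its name, but other knock-downs also moved some of them. IPPK was at 0.419 ± 0.0169 of control (SD, n = 3 arrays) with DBP5 siRNA (limma adjusted p = 8.27e-08), and DDX19B at 0.498 ± 0.0277 after GLE1 knock-down (limma adjusted p = 8.97e-08). A second, dimmer probe of IPPK gave 0.586, 2.11 and 0.495. DDX19A is a near relative of DDX19B and has its own probe. Each knock-down lowered it, to 0.0543 ± 0.00286, 0.555 ± 0.0145 and 0.302 ± 0.00399 of control (SD, n = 3 each). These 4 genes were left out when genes were picked for naming.

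In the pooled contrast 6331 genes (30.4% of those tested) were lower and 6040 (29.0%) were higher than in control at a limma adjusted p below 0.05. The 3 knock-downs were far from alike. By the F test among them, 14755 genes (70.9%) differed between knock-downs, and 4231 of these did not pass the pooled contrast. The spread that the pooled contrast is held against is that between arrays of one siRNA. When the 9 knock-down arrays were instead treated as a single group, so that differences between siRNAs counted as spread, 2576 genes were lower and 2852 higher. Among genes that passed the pooled contrast and are named below, ORC5, CDC6, PLK4, CSF2, IL32, ISG20, RIGI, RPS24, ATG5, HSPA1A, HSPA1B, DUSP6, CDKN1A, CSRP3, CCL4, CLDN4 and AQP1 lost the call in that fit, as did the targets, DDX19A and MALAT1. A pooled call therefore did not mean a shared change. Of the genes lower in the pooled contrast, 2551 also passed limma as lower in each of the 3 knock-downs, 2601 in 2 of them, 1165 in 1 and 14 in 0, while 685 passed as higher in at least 1. Of the genes higher in the pooled contrast, 2818 passed as higher in each knock-down, 2369 in 2, 845 in 1 and 8 in 0, and 611 passed as lower in at least 1.

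A gene was called lower or higher in common when it passed the pooled contrast and was at least 1.5-fold from control in the same direction in each knock-down. By this rule 840 genes (4.03%) were lower and 1116 genes (5.36%) were higher in common. All 9 knock-down arrays lay beyond all 3 control arrays for 825 of the genes lower in common and 1082 of those higher in common. The 3 knock-down contrasts use the same control arrays, so these numbers are no count of independent repeats. Within slides, where each siRNA is set against the control array of its own slide, the mean of the knock-downs was at least 1.5-fold from control on all 3 slides for 807 genes lower and 1081 genes higher in common. GLE1 knock-down gave the largest change of the 3 for 401 of the genes lower in common, IPPK knock-down for 270 and DBP5 knock-down for 169. The order was the same among the genes higher in common, with 532, 317 and 267. These counts depended on the background setting. With the processed values of the authors, made without background subtraction, 496 genes were lower and 684 higher in common, and with the normexp correction 465 and 717.

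Amounts were called even when the 95% intervals of all 3 differences between knock-downs lay within 1.5-fold. This held for 191 genes lower in common (0.917% of all genes tested) and 359 genes higher in common (1.72%). On all 3 slides the mean of the knock-downs was at least 1.5-fold from control for 177 and 345 of them. Their highest and lowest knock-down differed by a median of 1.18-fold among the genes lower and 1.19-fold among the genes higher, against 1.42-fold over all genes tested. The rule itself limits this spread, so a low median was fixed in advance. Even is not identical: 89 of the 191 and 209 of the 359 still passed the F test among knock-downs. Median changes were modest, at 0.535 of control for the genes lower by even amounts and 1.97 for those higher, and 72 and 168 of them were at least 2-fold from control. In the plot of pooled change against spread these genes, placed low by the rule, form the lower edge of 2 wings. Most of the strongly changed genes lie above them.

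**Figure D1:**
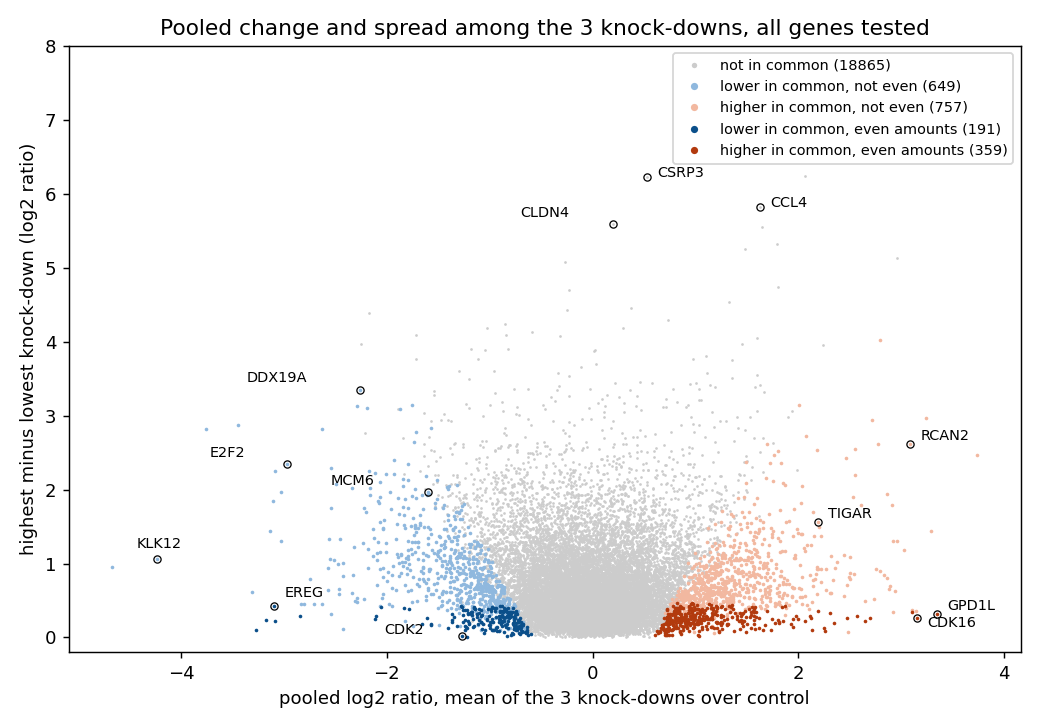
Each point is 1 of the 20821 genes tested, with the pooled log2 ratio to control on the x axis and the highest minus the lowest of the 3 knock-down log2 ratios on the y axis. The 191 genes lower and 359 genes higher by even amounts (dark) lie along the bottom, where the rule for even amounts puts them. CSRP3, CCL4 and CLDN4, which moved in opposite directions in different knock-downs, lie at the top.

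Among the genes lower by even amounts, EREG had the largest fall of those that met the naming rule. EREG encodes epiregulin, a ligand of the EGF receptor. Its ratio to control was 0.146, 0.13 and 0.142 on the DBP5 siRNA arrays, 0.103, 0.121 and 0.109 on the GLE1 siRNA arrays and 0.103, 0.106 and 0.103 on the IPPK siRNA arrays, with the control arrays at 0.971 to 1.06 of their own mean. All 9 values lay far below control and within a narrow band, a pattern that the naming rule and the rule for even amounts ask for. The pooled ratio was 0.117 (95% interval 0.107 to 0.128, limma adjusted p = 1.49e-10), and the F test still found the knock-downs to differ (adjusted p = 0.000683). With 75th percentile scaling EREG was lower in common but no longer by even amounts.

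CDK2, the kinase that drives entry into and passage through S phase, was the most even of the named genes. It was at 0.404, 0.436 and 0.416 of control on the DBP5 siRNA arrays, at 0.385, 0.431 and 0.423 on the GLE1 siRNA arrays and at 0.407, 0.417 and 0.411 on the IPPK siRNA arrays. No array of a knock-down stood apart from those of the others. The pooled ratio was 0.414 (95% interval 0.387 to 0.443, limma adjusted p = 4.74e-09), the F test gave an adjusted p of 0.913, and the intervals allowed a difference of at most 1.1-fold between any pair of knock-downs. CCNE1, which encodes the cyclin E that activates CDK2, was also lower by even amounts, at 0.578 ± 0.0383, 0.474 ± 0.0416 and 0.576 ± 0.0541 of control (SD, n = 3 each; limma adjusted p = 1.09e-06).

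Other genes lower by even amounts had diverse functions. HNMT, which inactivates histamine by methylation, was at 0.284 ± 0.00295, 0.229 ± 0.00802 and 0.213 ± 0.0135 of control (SD, n = 3 each; limma adjusted p = 2.55e-10). A second probe of HNMT was also lower in all 3 but not evenly, at 0.376, 0.648 and 0.365. The remaining probe was at 0.273 and 0.506 after DBP5 and GLE1 knock-down and was not well above background on the IPPK siRNA arrays. With quantile normalization the named probe was not even either. BCL2L2, an anti-apoptotic member of the BCL2 family, was at 0.366 ± 0.0166, 0.317 ± 0.00408 and 0.304 ± 0.00983 (limma adjusted p = 7.24e-10). IFI44L, an interferon-stimulated gene, was at 0.288 ± 0.00452, 0.242 ± 0.0135 and 0.319 ± 0.0315 (limma adjusted p = 3.08e-09), and its pooled ratio went from 0.281 to 0.428 with normexp. The remaining named genes, GMFG, DRD1, TRABD2A, ZNRF1, ANKRD10, RGS2 and HOXB4, had pooled ratios from 0.318 to 0.419. The second probe of TRABD2A gave 0.593 in place of 0.392, and that of ANKRD10 gave 0.561, with ratios of 0.561, 0.685 and 0.46. RGS2 limits signals of G protein-coupled receptors and HOXB4 is a homeobox transcription factor. DRD1, the dopamine D1 receptor gene, had a dim probe, and its pooled ratio of 0.388 was 0.625 with normexp, where it was no longer lower in common. DRD1 was not even under 75th percentile scaling, quantile normalization, normexp or the authors' processed values.

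Among the genes higher by even amounts GPD1L had the largest rise of those named. GPD1L, a relative of glycerol-3-phosphate dehydrogenase, was at 9.31, 9.4 and 9.2 times control on the DBP5 siRNA arrays, 11.4, 11.3 and 12 on the GLE1 siRNA arrays and 9.54, 9.95 and 10.2 on the IPPK siRNA arrays, while the control arrays lay at 0.986 to 1.01 of their mean. Its pooled ratio was 10.2 (95% interval 9.66 to 10.8, limma adjusted p = 9.99e-12). CDK16, a cyclin-dependent kinase with roles outside the core cell cycle, was at 8.07, 8.13 and 8.95 on the DBP5 siRNA arrays, 10.3, 9.97 and 9.81 on the GLE1 siRNA arrays and 8.28, 8.27 and 8.5 on the IPPK siRNA arrays. In both genes every knock-down array was at least 8.07 times the control mean, and all GLE1 siRNA arrays lay above all other arrays (F test adjusted p = 0.000228 and 0.00347).

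TSPAN6, a tetraspanin, was at 5.9 ± 0.044, 6.9 ± 0.388 and 6.05 ± 0.0191 times control (SD, n = 3 each; limma adjusted p = 9.64e-11). PON2, a paraoxonase that protects against oxidative stress, was at 4.82 ± 0.458, 4.97 ± 0.306 and 4.53 ± 0.145 (limma adjusted p = 9.57e-10), and CCDC80, a secreted matrix protein, at 4.45 ± 0.185, 4.52 ± 0.36 and 4.22 ± 0.257 (limma adjusted p = 9.61e-10). For PON2 and CCDC80 the F test among knock-downs did not pass (adjusted p = 0.268 and 0.409), with differences of at most 1.23-fold and 1.19-fold allowed by the intervals. The other named genes were TNIK, a kinase of Wnt and JNK signalling, POLR3G, a subunit of RNA polymerase III, CNTN1, a neuronal adhesion protein, the zinc transporter SLC30A2, AMZ2, SLC33A2 and NIPSNAP3A, with pooled ratios from 4.36 to 6.5.

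Not every probe of these genes gave the same value. The probe used for a gene was the brightest over all 12 arrays, the knock-down arrays included, a choice that favours a probe that is high in the knock-downs. The second probe of POLR3G gave a pooled ratio of 1.43 in place of 5.93, and that of TNIK 3.01 in place of 6.5. For both genes this second probe was the brighter one on the control arrays. With normexp TNIK was at 3.42 and CNTN1 at 2.18 in place of 5.55. For CNTN1 the second, dimmer probe gave 0.987, so the change of CNTN1 rests on 1 probe. The second probe of AMZ2 gave 6.4 in place of 4.78. The second probe of CCDC80 was not well above background on any control array, so it gives no exact ratio. Probes of one gene can read different transcripts of it.

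**Figure D2:**
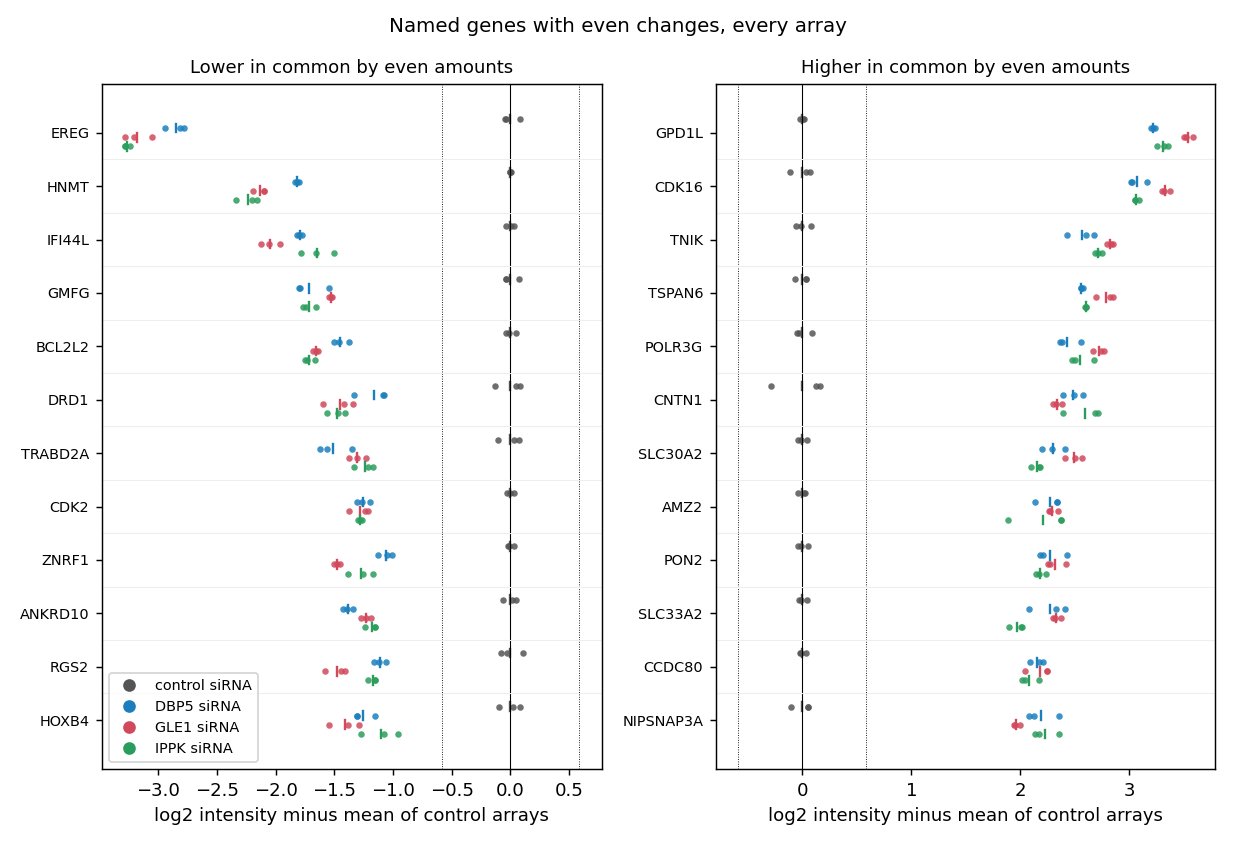
Log2 intensity minus the mean of the control arrays (x axis) for 12 genes that fell and 12 that rose by even amounts, those with the largest changes among genes that met the naming rule, named on the y axis. Each dot is 1 array, short bars are means of 3 arrays, and dotted lines mark 1.5-fold. The naming rule asks that the 9 knock-down arrays lie on one side of the 3 control arrays in every row. For EREG they lie between 0.103 and 0.146 of control.

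Other genes changed in common by amounts that differed between knock-downs. KLK12, a secreted serine protease of the kallikrein family, was at 0.0377, 0.0307 and 0.0387 of control on the DBP5 siRNA arrays, 0.0789, 0.0758 and 0.0683 on the GLE1 siRNA arrays and 0.0524, 0.0623 and 0.0555 on the IPPK siRNA arrays. The pooled ratio was 0.053 (limma adjusted p = 2.02e-10), or 0.165 with normexp, and the highest knock-down was 2.09 times the lowest (F test adjusted p = 1.91e-05). SH2D3A, an adaptor protein, was at 0.206 ± 0.00489, 0.175 ± 0.00464 and 0.132 ± 0.00384 of control (SD, n = 3 each). TRIM15, a focal adhesion protein, had a pooled ratio of 0.149, or 0.373 with normexp.

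On the side of the rises, NXT2 encodes a cofactor of the general mRNA export receptor NXF1. It was at 9.58, 7.38 and 7.37 times control on the DBP5 siRNA arrays, 8.46, 8.24 and 8.46 on the GLE1 siRNA arrays and 11.4, 9.56 and 10.1 on the IPPK siRNA arrays (pooled ratio 8.87, limma adjusted p = 1.42e-09). A second probe gave a pooled ratio of 2.42, and normexp gave 5.58. RCAN2, an inhibitor of calcineurin, was the least even of the named rises, at 7.68 ± 0.346, 22.2 ± 1.82 and 3.6 ± 0.183 times control (SD, n = 3 each; F test adjusted p = 2.44e-09). Its second, dimmer probe gave 1.28, 1.17 and 1.51. RNF125, a ubiquitin ligase, was at 4.89 ± 0.506, 10.1 ± 0.0499 and 11.1 ± 0.883, with a pooled ratio of 8.17, or 4.20 with normexp.

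The members of 24 gene lists were then counted and set beside all genes tested, of which 30.4% were lower and 29.0% higher in the pooled contrast. In 5 lists of cell proliferation most genes were lower. In the list of replication licensing and origin firing, 22 of 26 genes were lower and 3 higher. For DNA synthesis and fork factors the counts were 31 lower and 2 higher of 34, for mitotic kinases, spindle and kinetochore 35 and 1 of 38, and for homologous recombination and Fanconi anaemia 25 and 1 of 27. Among G1/S cyclins, kinases and E2F factors 17 of 23 were lower and 2 higher. The median pooled ratios of these 5 lists were 0.592, 0.613, 0.583, 0.611 and 0.721 in this order, against 0.99 over all genes tested.

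The direction was shared and the amount was not. The median over the licensing genes was 0.65, 0.425 and 0.746 of control in the 3 knock-downs, and for the mitotic genes it was 0.742, 0.401 and 0.748. On the log2 scale the medians of the single knock-down arrays over the licensing genes ran from -1.29 to -0.39, and those of the control arrays from -0.01 to 0.02. The F test passed for all 26 licensing genes and all 38 mitotic genes, against 70.9% of all genes tested. Lower in common were 6 of the licensing genes, 6 of the synthesis genes, 6 of the mitotic genes, 3 of the recombination genes and 6 of the G1/S genes, which is 11.1% to 26.1% of each list against 4.03% of all genes. CDK2, CCNE1 and FANCE, a subunit of the Fanconi anaemia core complex, were the 3 genes of these lists that were lower by even amounts.

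MCM6, a subunit of the replicative helicase, was at 0.458, 0.436 and 0.388 of control on the DBP5 siRNA arrays, 0.106, 0.174 and 0.171 on the GLE1 siRNA arrays and 0.554, 0.591 and 0.579 on the IPPK siRNA arrays. All 9 arrays lay below the control arrays, which the naming rule asks for, and the GLE1 siRNA arrays lay below all others. E2F2, a transcription factor of S phase entry, was at 0.158, 0.167 and 0.163 of control on the DBP5 siRNA arrays, 0.0511, 0.0522 and 0.0471 on the GLE1 siRNA arrays and 0.241, 0.259 and 0.261 on the IPPK siRNA arrays (pooled ratio 0.127, limma adjusted p = 1.32e-10). Without the GLE1 siRNA arrays its pooled ratio was 0.203. E2F8 was lower in common too, at a pooled ratio of 0.277 (limma adjusted p = 1.49e-08), whereas E2F7, its close relative and likewise a repressor, was higher in common at 2.23 ± 0.317, 2.76 ± 0.266 and 1.99 ± 0.287 (SD, n = 3 each; limma adjusted p = 2.71e-06).

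CDC45, which joins the helicase when origins fire, was at 0.482 ± 0.0109, 0.277 ± 0.0161 and 0.552 ± 0.0042 of control (SD, n = 3 each; limma adjusted p = 4.74e-09). RRM2, a subunit of ribonucleotide reductase, was at 0.446 ± 0.0461, 0.201 ± 0.0105 and 0.515 ± 0.00382 (limma adjusted p = 1.33e-08), and CLSPN, the checkpoint adaptor claspin, at 0.535 ± 0.12, 0.251 ± 0.0181 and 0.489 ± 0.019 (limma adjusted p = 4.38e-06). SPC25, a kinetochore protein, was at 0.472 ± 0.0433, 0.191 ± 0.0115 and 0.6 ± 0.00838 (limma adjusted p = 3.13e-08), and CENPA, the histone H3 variant of centromeres, at 0.548 ± 0.0318, 0.228 ± 0.028 and 0.644 ± 0.0531 (limma adjusted p = 2.07e-07). UBE2T, the ubiquitin-conjugating enzyme of the Fanconi pathway, had a pooled ratio of 0.402 and RMI2, a subunit of the BLM complex, one of 0.384.

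A few genes of these lists went the other way. GMNN, which encodes geminin, the inhibitor of the licensing factor CDT1, was higher in common, at 1.94 ± 0.149, 1.76 ± 0.0206 and 3.37 ± 0.0994 times control (SD, n = 3 each; limma adjusted p = 1.40e-08). CDC6, which helps to load the helicase onto origins, was at 2.11 ± 0.12, 0.971 ± 0.166 and 2.32 ± 0.11 (limma adjusted p = 4.97e-05), so that it rose in 2 of the knock-downs. PLK4, the kinase of centriole duplication, had a pooled ratio of 1.32 (limma adjusted p = 0.000705), and ORC5, of the origin recognition complex, one of 1.13 (limma adjusted p = 0.00798). For ORC5 the second probe gave 0.995. For PRIM2, a primase subunit with a pooled ratio of 1.51, 1 of the 2 other probes gave 0.494, so its direction depends on the probe.

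Promoters of the proliferation genes were searched for short motifs, and 3 are shown because their genes were lower in common and hold matches to an E2F site or to a cell cycle homology region (CHR). The sequences are those of RefSeq (GRCh38.p14), from 250 bases before to 50 after the gene's start, with E2F matches (TTTCCCGC, TTTCGCGC, TTTGCCGC or TTTGGCGC on either strand) and CHR matches (TTTGAA on either strand) in capitals. MCM6 lies on the minus strand at chr2:135876394-135876693, E2F2 on the minus strand at chr1:23531184-23531483 and CENPA on the plus strand at chr2:26785806-26786105, and each is written 5′ to 3′ along its gene.
MCM6: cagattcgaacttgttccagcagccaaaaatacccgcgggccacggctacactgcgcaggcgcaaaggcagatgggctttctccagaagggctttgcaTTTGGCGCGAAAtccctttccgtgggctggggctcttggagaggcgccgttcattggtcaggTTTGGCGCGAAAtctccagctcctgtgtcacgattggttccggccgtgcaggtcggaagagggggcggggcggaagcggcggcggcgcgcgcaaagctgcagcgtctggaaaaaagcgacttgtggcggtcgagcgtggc
E2F2: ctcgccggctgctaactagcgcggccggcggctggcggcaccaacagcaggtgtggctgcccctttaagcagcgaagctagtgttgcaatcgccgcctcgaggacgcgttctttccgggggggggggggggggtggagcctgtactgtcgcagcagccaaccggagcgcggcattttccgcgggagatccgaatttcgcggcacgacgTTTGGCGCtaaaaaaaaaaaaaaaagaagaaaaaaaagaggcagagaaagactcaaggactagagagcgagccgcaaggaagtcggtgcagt
CENPA: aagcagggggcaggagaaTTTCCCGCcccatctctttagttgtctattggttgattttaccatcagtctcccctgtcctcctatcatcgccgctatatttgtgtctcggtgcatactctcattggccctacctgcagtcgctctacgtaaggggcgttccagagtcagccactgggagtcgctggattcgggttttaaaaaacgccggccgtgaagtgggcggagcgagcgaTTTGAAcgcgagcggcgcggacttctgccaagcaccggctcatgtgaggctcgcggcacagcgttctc
MCM6 holds 4 matches, as overlapping pairs at 2 places, E2F2 holds 1, and CENPA holds 1 E2F match and 1 CHR match. The array design gives another build, hg19, and no coordinates of the arrays were used.

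Of 12856 promoters of genes tested, 4.81% held an E2F match, 10.7% a CHR match and 36.5% a CCAAT box. In the licensing list 11 of 22 promoters held an E2F match, in the list of G1/S genes 33.3% of 18 and in that of DNA synthesis genes 30.0% of 30. In the mitotic list 70.6% of 34 promoters held a CHR match, 73.5% a CCAAT box and 5.88% an E2F match. Over all genes lower in common, 5.7% of 456 promoters held an E2F match and 15.6% a CHR match. Of the 113 promoters of genes lower by even amounts, 1.77% held an E2F match and 14.2% a CHR match, and of the 283 promoters of genes higher by even amounts 8.13% and 7.42% did. Matches to AP-1 (TGACTCA) were found in 2.65% and 1.77% of the same promoters, against 3.65% of all, and matches to TEAD (CATTCC) in 9.73% and 9.54%, against 11.4%. These shares are descriptions of short windows, without a test.

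**Figure D3:**
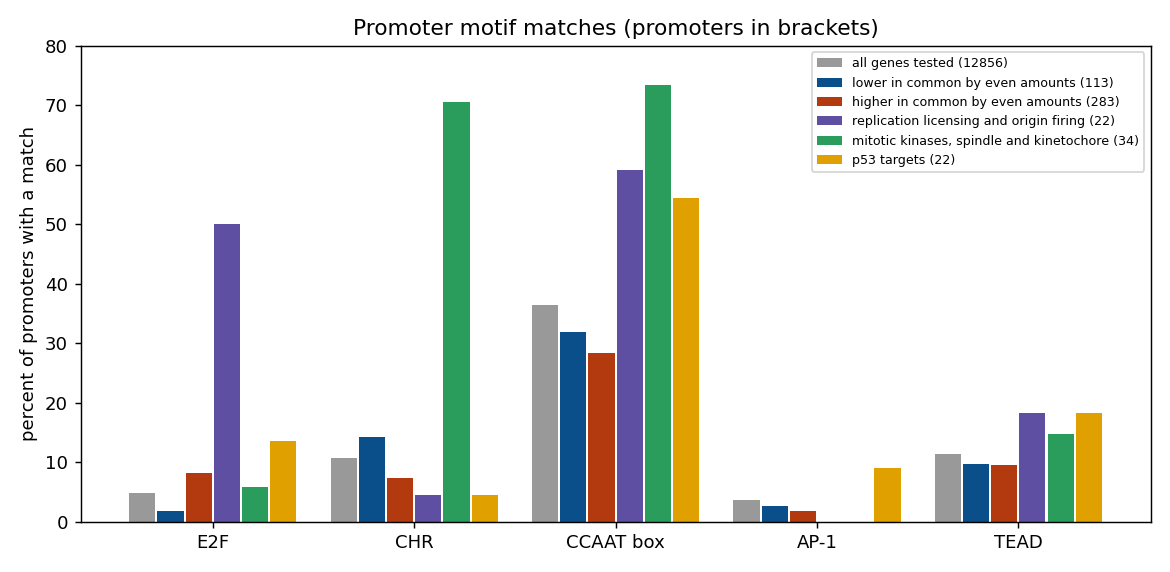
Percent of promoters (y axis) with at least 1 match to each motif (x axis), for all genes tested, for the genes changed by even amounts and for 3 gene lists, with the number of promoters in brackets. The licensing list stands out for E2F with 11 of 22 promoters and the mitotic list for CHR at 70.6%, while 1.77% of the genes lower and 8.13% of the genes higher by even amounts held an E2F match.

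Of the 24 lists, that of p53 targets had the largest share of rises. U2OS cells carry an intact p53 gene, and the list holds genes that p53 activates after stress. Of 26 targets tested, 23 were higher (88.5%, against 29.0% of all genes) and 0 lower, and 11 were higher in common (42.3%, against 5.36%). The exceptions were GDF15, BAX and TNFRSF10B. GDF15, a secreted stress factor, was at 0.621, 2.63 and 0.599 of control, and TNFRSF10B, a death receptor, at 0.466, 1.12 and 1.7, so that both lay on either side of control in different knock-downs. The median ratio over the list was 1.48, 2.45 and 1.65.

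TIGAR, which lowers glycolytic flux, was at 3.22, 2.62 and 2.65 times control on the DBP5 siRNA arrays, 8.61, 8.01 and 8.32 on the GLE1 siRNA arrays and 3.98, 4.08 and 4.23 on the IPPK siRNA arrays. The arrays of the 3 knock-downs did not overlap with each other. They lay apart from control too, as the naming rule asks (pooled limma adjusted p = 7.59e-09). EDA2R, a receptor of the TNF receptor family, was at 3.1 ± 0.0142, 4.98 ± 0.141 and 2.41 ± 0.561 (SD, n = 3 each; limma adjusted p = 3.20e-07), and its second probe gave a pooled ratio of 1.55 in place of 3.34. CDKN1A, which encodes the cell cycle inhibitor p21, was higher in common and most so after GLE1 knock-down, at 1.51 ± 0.0682, 4.23 ± 0.486 and 1.61 ± 0.0309 (limma adjusted p = 2.27e-07).

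By contrast, 4 targets were higher by even amounts. ZMAT3, an RNA-binding protein, was at 2.72 ± 0.346, 3.02 ± 0.0744 and 2.58 ± 0.146 times control (SD, n = 3 each), and FDXR, a mitochondrial reductase, at 1.87 ± 0.0907, 1.76 ± 0.072 and 1.79 ± 0.0404. For both, the F test among knock-downs did not pass (adjusted p = 0.107 and 0.366). The other 2 were the kinase PLK2 (2.54, 3.21 and 2.55 times control) and TP53INP1 (2.14, 2.29 and 1.92). Of the genes named here, CDKN1A, GDF15, BAX, TNFRSF10B, PLK2, FDXR, TP53INP1 and ZMAT3 were chosen with their values in view. So were CCNE1, CDC6 and FANCE above.

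**Figure D4:**
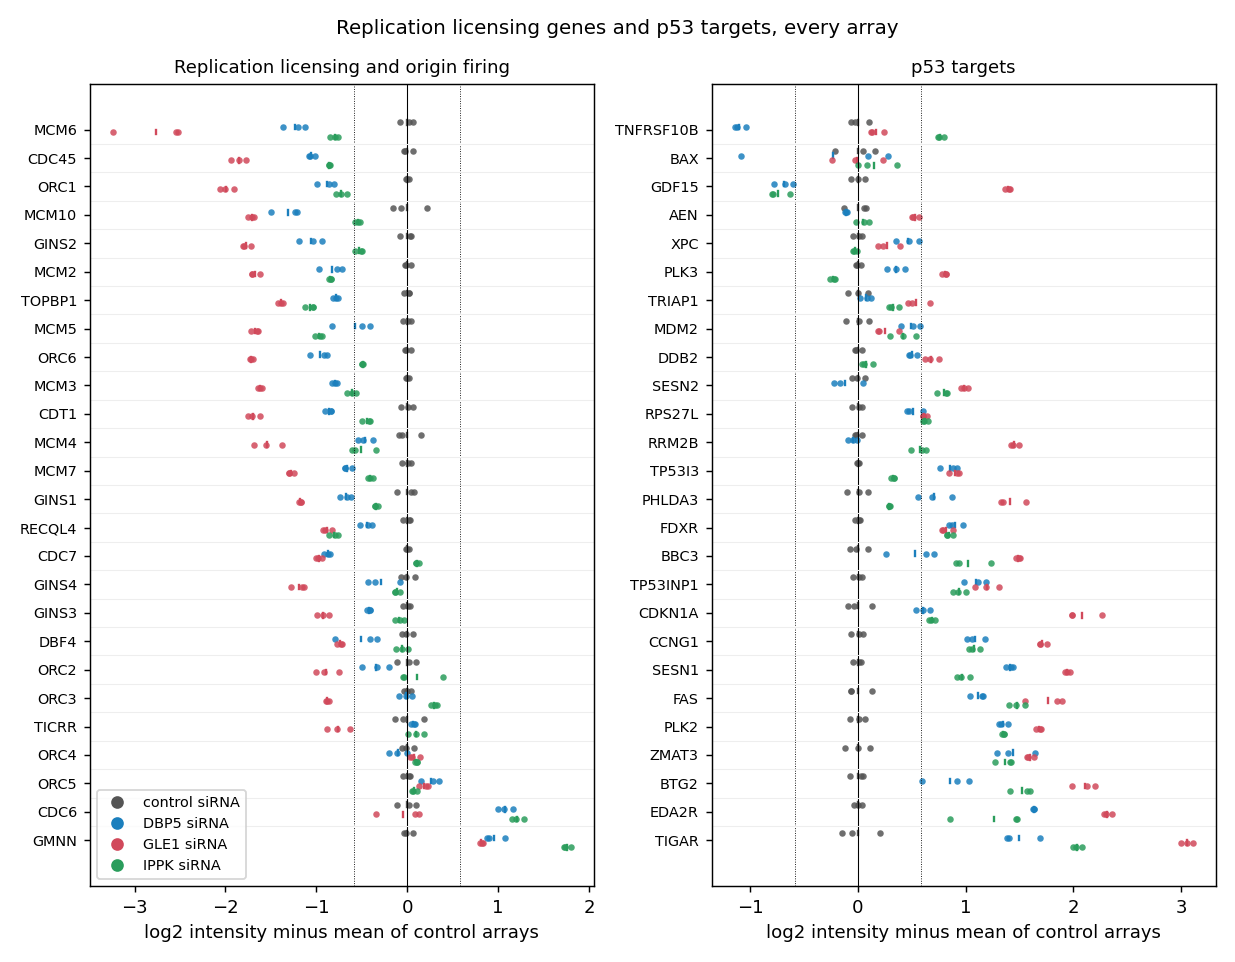
Log2 intensity minus the mean of the control arrays (x axis) for the 26 replication licensing genes and the 26 p53 targets tested, ordered by the pooled ratio. Dots are arrays, short bars are means of 3 arrays and dotted lines mark 1.5-fold. Most licensing genes lie left of control with the GLE1 siRNA arrays farthest out, as for MCM6 at 0.106 to 0.174 of control, and most p53 targets lie to the right.

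In the list of the DNA damage checkpoint the members moved both ways, 10 lower and 5 higher of 19. These are 52.6% and 26.3%, against 30.4% and 29.0% of all genes tested. ATR, the kinase that senses stalled forks, was higher by even amounts at 1.97 ± 0.0969, 1.77 ± 0.0392 and 2.39 ± 0.0254 times control (SD, n = 3 each; limma adjusted p = 6.78e-09), and a second probe gave a pooled ratio of 2.11. With the processed values of the authors ATR was higher in common but not by even amounts. CHEK1, the kinase downstream of ATR, was lower in common at 0.54 ± 0.0119, 0.291 ± 0.0111 and 0.661 ± 0.00349 (limma adjusted p = 4.06e-09). CDC25A, the phosphatase that activates CDK2, was lower in the pooled contrast but at 0.742 ± 0.0176 after IPPK knock-down it missed 1.5-fold.

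Adhesion and matrix genes were higher more often than lower. Of 38 genes of integrins and focal adhesions 17 were higher and 5 lower, and 6 were higher in common. These are 44.7%, 13.2% and 15.8%, against 29.0%, 30.4% and 5.36% of all genes tested. VCL, which encodes vinculin and links integrins to actin, was at 4.06, 4.48 and 4.2 times control on the DBP5 siRNA arrays, 5.9, 5.78 and 7.39 on the GLE1 siRNA arrays and 4.05, 3.58 and 3.62 on the IPPK siRNA arrays (pooled limma adjusted p = 4.74e-09). All 9 arrays were at least 3.58 times the control mean. PARVA, the adaptor alpha-parvin, had a pooled ratio of 4.07 (limma adjusted p = 4.19e-09), and its relative PARVB, at 4.06, 3.85 and 3.69, was the 1 gene of the list that was higher by even amounts. ITGA1, the integrin alpha 1 subunit, was lower in common at a pooled ratio of 0.371 (limma adjusted p = 8.27e-06), or 0.608 with normexp.

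In collagens and matrix 18 of 36 genes were higher and 7 lower, with 3 higher in common. These are 50%, 19.4% and 8.33%, against 29.0%, 30.4% and 5.36% of all genes tested. In the median over both lists IPPK knock-down was close to control, at 0.975 and 0.983, while GLE1 knock-down was at 1.45 and 1.42.

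**Figure D5:**
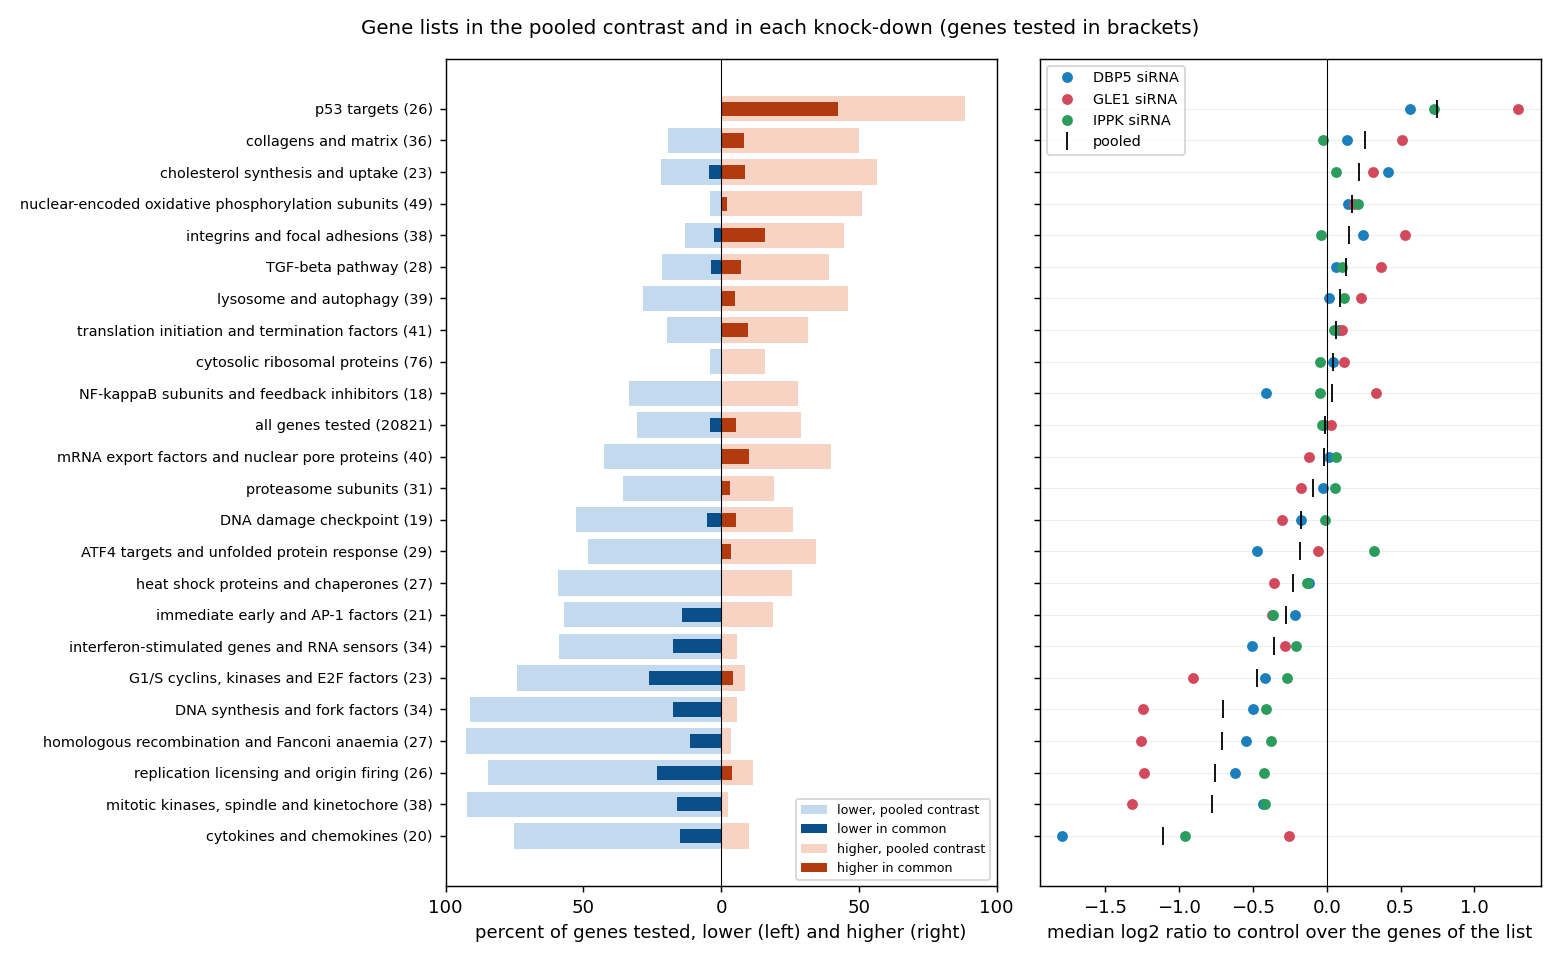
Left, the percent of the tested genes of each list shown that were lower (blue) or higher (orange) in the pooled contrast, with the part changed in common in dark bars; right, the median log2 ratio to control of each list in each knock-down and pooled. The p53 targets end at 88.5% higher and the mitotic list at 92.1% lower, and the dots of cytokines and chemokines lie farthest apart.

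Cytokines and chemokines, the secreted signals of inflammation, had the lowest pooled median, at 0.464 of control, with 15 of 20 genes lower and 2 higher. The knock-downs differed in all 20 by the F test, against 70.9% of all genes tested. The medians were 0.289, 0.836 and 0.513. CSF2, the growth factor GM-CSF, was at 0.102, 0.108 and 0.0876 of control on the DBP5 siRNA arrays, 0.733, 0.874 and 0.921 on the GLE1 siRNA arrays and 0.225, 0.239 and 0.243 on the IPPK siRNA arrays. IL1A, an early cytokine of tissue damage, was at 0.168 ± 0.00766, 0.774 ± 0.0615 and 0.17 ± 0.0145 (SD, n = 3 each; limma adjusted p = 6.64e-09). Both missed the 1.5-fold limit after GLE1 knock-down, and CSF2 lost its call when the 9 arrays were treated as a single group (limma adjusted p = 0.0752). Without the GLE1 siRNA arrays the pooled ratios of CSF2 and IL1A were 0.153 and 0.169 in place of 0.269 and 0.28, and without the DBP5 siRNA arrays that of CSF2 was 0.445.

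Lower in common in this list were CCL2, a chemokine for monocytes, at 0.212 ± 0.00863, 0.549 ± 0.0537 and 0.192 ± 0.00184 of control (SD, n = 3 each; limma adjusted p = 1.87e-09), and IL1B and TNF, whose probes were not well above background on all 12 arrays. IL18 and IL32 were the genes that rose, at pooled ratios of 1.55 and 1.89 (limma adjusted p = 1.45e-06 and 1.06e-06). NF-kappaB subunits and their feedback inhibitors, the regulators of many of these cytokines, had 6 of 18 lower and 5 higher in the pooled contrast (33.3% and 27.8%, near the 30.4% and 29.0% of all genes tested), and the medians were 0.75, 1.26 and 0.969.

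Interferon-stimulated genes and RNA sensors were lower more often than higher, with 20 lower, 2 higher and 6 lower in common of 34. IFI44, which is related to IFI44L, was at 0.273 ± 0.0278, 0.244 ± 0.0176 and 0.203 ± 0.0183 of control (SD, n = 3 each; limma adjusted p = 1.53e-08). OAS2 and IFIT2, which act against viral RNA, had pooled ratios of 0.308 and 0.342 (limma adjusted p = 1.69e-07 and 7.61e-08). The 2 other, dimmer probes of OAS2, of which the second was well above background on 7 arrays, gave 1.11 and 0.938 (limma adjusted p = 0.6765 and 0.9266), so the fall of OAS2 rests on 1 probe. OAS1 and BST2 were not well above background on all arrays. RIGI, the sensor of viral RNA, went the other way at a pooled ratio of 1.28 (limma adjusted p = 0.000269), as did ISG20 at 1.68 (limma adjusted p = 1.57e-07). The second probe of RIGI gave 1, 1.43 and 1.07, and its pooled ratio of 1.15 did not pass (limma adjusted p = 0.0808). With a single control group, a higher level in its cells and a lower level in the knocked-down cells cannot be told apart.

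Immediate early and AP-1 factors, the first genes switched on by growth signals, had 12 lower and 4 higher of 21. FOS was lower by even amounts at 0.656 ± 0.0553, 0.496 ± 0.00793 and 0.611 ± 0.0275 of control (SD, n = 3 each; limma adjusted p = 4.41e-07), but was not lower in common with normexp or with the values of the authors. IER5 was lower by even amounts too, at a pooled ratio of 0.564 (limma adjusted p = 4.76e-08). DUSP6, a phosphatase that shuts off ERK, was at 0.651 ± 0.0784, 0.191 ± 0.0219 and 0.571 ± 0.0502 (limma adjusted p = 6.26e-07). JUN, the partner of FOS, was higher, at 1.33 ± 0.193, 3.35 ± 0.0882 and 2.39 ± 0.123 (limma adjusted p = 6.52e-07).

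The export machinery itself moved in both directions, as did all genes tested, of which 30.4% were lower and 29.0% higher. Of 40 mRNA export factors and nuclear pore proteins, 17 were lower (42.5%) and 16 higher (40%). Against 4.03% and 5.36% of all genes tested, 0 were lower in common and 4 (10%) were higher in common. Beside NXT2, the latter were NUP58, a nucleoporin of the central channel, at 2.12 ± 0.0478, 2.59 ± 0.177 and 3.78 ± 0.217 times control (SD, n = 3 each; limma adjusted p = 4.82e-09), SEC13, which was even at 2.44, 2.47 and 2.27, and RANBP2 at a pooled ratio of 2.05 (limma adjusted p = 0.00789), while its other probe gave 0.813, 0.794 and 0.811 and the mean of its probes lost the call (adjusted p = 0.0791), so that the direction of RANBP2 depends on the probe. XPO1, the export receptor CRM1, was lower at 0.818 ± 0.0149, 0.504 ± 0.00502 and 0.689 ± 0.00655 (limma adjusted p = 2.32e-07), and THOC6, of the THO complex, at 0.635 ± 0.0486, 0.566 ± 0.122 and 0.88 ± 0.049 (limma adjusted p = 0.000844).

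Lists of general cell functions changed little in their medians. Translation initiation and termination factors had 8 lower and 13 higher of 41 (19.5% and 31.7%, against 30.4% and 29.0% of all genes tested). In common 4 were higher (9.76%, against 5.36% of all genes). EIF3L, a subunit of the initiation factor eIF3, was higher by even amounts at 4.29 ± 0.131, 4.47 ± 0.306 and 3.82 ± 0.23 times control (SD, n = 3 each; limma adjusted p = 6.90e-10), and EIF5A, which aids elongation and termination, was at 2.68 ± 0.277, 4.25 ± 0.045 and 3.68 ± 0.131 (limma adjusted p = 5.63e-09). Cytosolic ribosomal proteins were the steadiest, with 3 lower and 12 higher of 76, 0 in common, and a median ratio of 1.03 whose log2 sign turned with some scalings. The highest of them was RPL30 at 1.18 (limma adjusted p = 8.73e-05).

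Oxidative phosphorylation subunits encoded in the nucleus were higher more often than lower, by small amounts. Of 49 genes 25 were higher and 2 lower, and the medians were 1.11, 1.13 and 1.16. The highest and lowest knock-down of a gene differed by a median of 1.18-fold in this list, against 1.42-fold over all genes. Few reached 1.5-fold in each knock-down, and 1 was higher in common, NDUFB10 of complex I at 2.07 ± 0.0459, 1.55 ± 0.0242 and 1.6 ± 0.0188 (SD, n = 3 each; limma adjusted p = 1.52e-08). COX6B1 of complex IV was at 1.48 ± 0.0389, 1.43 ± 0.0432 and 1.51 ± 0.0785 (limma adjusted p = 1.12e-06).

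In the remaining lists the pooled contrast joined rises and falls, as it did over all genes tested (30.4% lower and 29.0% higher). Proteasome subunits had 11 lower and 6 higher of 31 (35.5% and 19.4%). PSMD8 was higher by even amounts at 1.94 ± 0.105, 2.06 ± 0.0593 and 2.22 ± 0.042 (SD, n = 3 each; limma adjusted p = 1.15e-08). Lysosome and autophagy genes had 11 lower and 18 higher of 39 (28.2% and 46.2%). ATP6V0D1, a subunit of the proton pump, was at 2.91 ± 0.326, 2.17 ± 0.0926 and 2.39 ± 0.0487 (limma adjusted p = 1.40e-07). ATG5, which is needed for autophagosomes, fell mostly after GLE1 knock-down, at 0.79 ± 0.0153, 0.229 ± 0.00671 and 0.821 ± 0.0168, and its pooled ratio went from 0.529 to 0.805 without the GLE1 siRNA arrays. The second probe of ATG5 gave 0.638, 0.482 and 1.01.

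Cholesterol synthesis and uptake had 13 higher (56.5%) and 5 lower (21.7%) of 23. SQLE, a rate-limiting enzyme of the pathway, was at 2.33 ± 0.211, 3.41 ± 0.032 and 1.97 ± 0.101 times control (SD, n = 3 each; limma adjusted p = 1.29e-08), and DHCR7, of the last step, at 2.33 ± 0.0945, 2.18 ± 0.144 and 1.61 ± 0.0235 (limma adjusted p = 4.19e-08). TM7SF2, a sterol reductase, was lower in common at a pooled ratio of 0.529 (limma adjusted p = 1.03e-06).

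Stress genes moved both ways. ATF4 targets and genes of the unfolded protein response had 14 lower (48.3%) and 10 higher (34.5%) of 29. Their median was below control after DBP5 knock-down (0.72), near control after GLE1 knock-down (0.961) and above control after IPPK knock-down. HSPA5, the chaperone BiP, rose to 1.41 ± 0.22, 2.18 ± 0.219 and 2.48 ± 0.146 (SD, n = 3 each; limma adjusted p = 5.91e-06), and CALR, the chaperone calreticulin, rose by even amounts to 1.77 ± 0.0351, 1.96 ± 0.194 and 1.75 ± 0.142 (limma adjusted p = 2.63e-05). Of 27 heat shock proteins and chaperones 16 were lower (59.3%) and 7 higher (25.9%), 0 of them in common. HSPA1A and HSPA1B, 2 near-identical genes whose probes may read both, had pooled ratios of 0.486 and 0.558 (limma adjusted p = 7.77e-09 and 3.29e-08) and were lowest after GLE1 knock-down, at 0.245 and 0.32.

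In the TGF-beta pathway 11 genes were higher (39.3%) and 6 lower (21.4%) of 28. SMURF2, a ubiquitin ligase that limits the signal, was higher by even amounts at 2.49 ± 0.102, 3.25 ± 0.0707 and 2.94 ± 0.135 times control (SD, n = 3 each; limma adjusted p = 9.50e-09), and with 75th percentile scaling higher in common but not by even amounts. FST, which encodes the activin antagonist follistatin, was lower in common at 0.387 ± 0.0175, 0.363 ± 0.0265 and 0.649 ± 0.0109 (limma adjusted p = 1.65e-08).

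Pooling also hid opposite changes. For 518 genes at least 1 knock-down was at least 1.5-fold lower and another at least 1.5-fold higher, both past limma, and 307 of these genes did not pass the pooled contrast. CLDN4, a claudin of tight junctions, was at 0.696, 0.756 and 0.87 of control on the DBP5 siRNA arrays, 9.71, 9.99 and 9.59 on the GLE1 siRNA arrays and 0.176, 0.211 and 0.224 on the IPPK siRNA arrays. The GLE1 siRNA arrays were thus far above and the IPPK siRNA arrays far below the control arrays, while the pooled ratio was 1.15 (limma adjusted p = 0.048), a call that was lost with 75th percentile scaling, with quantile normalization, without a filter on dim probes and without any 1 control array. CSRP3, a muscle LIM protein, was at 2.19 ± 0.327, 10.1 ± 0.851 and 0.135 ± 0.0116 (SD, n = 3 each), AQP1, a water channel, at 0.807 ± 0.00254, 4.48 ± 0.0883 and 0.173 ± 0.0246, and CCL4, a chemokine, at 0.628 ± 0.0935, 35.6 ± 1.17 and 1.32 ± 0.138. For these 4 genes the F test among knock-downs gave adjusted p from 3.24e-10 to 4.12e-10, and in each of them the pooled ratio joins values on both sides of control.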

How the data were processed

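Cytoplasmic RNA of 12 samples was measured on one-colour Agilent arrays. The authors deposited, per array, the Feature Extraction (version 10.7.3.1) output with a background-subtracted intensity for each spot, and a table of log2 values that follows the median spot intensity without subtraction and, per the methods, was LOESS-normalized. Groups and replicate numbers came from the sample labels.

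Here, log2 of the background-subtracted intensity was brought to one scale across arrays by cyclic loess. Control spots and spots with an outlier flag were dropped, spots of a probe were averaged, and 26445 of 34127 probes (77.5%) were named through RefSeq accessions. The brightest probe stood for a gene, and a gene was tested if 1 or more siRNAs had it well above background on each of their 3 arrays (20821 of 27522). For 4 genes an array had no value and was dropped in the fit. limma 3.58.1 (R 4.3.3) was fitted over all 12 arrays with a mean per siRNA, and its two-sided p-values were adjusted over all genes (Benjamini-Hochberg, threshold 0.05). The script was first tested on simulated data. Figures were drawn with matplotlib. Arrays give no counts, and the number of arrays limits the precision.

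Named genes were those well above background on all 12 arrays whose 9 knock-down arrays all lay above or all below the control arrays: the 12 largest falls and rises among even genes, the 5 largest each among genes in common that passed the F test, and the 2 largest falls and rises of each list, together with the 4 widest opposite calls, which need not lie on one side. Genes such as CCL2, FOS, IER5, IFIT2, OAS2, PARVB, RANBP2, SEC13, MALAT1 and KCNQ1OT1 were chosen after their values were seen. The comparison, the gene lists and the rules were chosen with earlier results of these data known. Of the 24 gene lists, 1 is not reported here, and neither are some single genes.

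Replicate numbers mark the slide: deviations from group means correlated at 0.318 to 0.513 for the 18 same-numbered pairs of arrays of different siRNAs and at -0.285 to -0.0493 for the 36 other pairs. Deviations cancel out within a group, so the negative values follow from the positive ones. A fit with the number as a block was therefore run beside the main one. Alternatives were 75th percentile scaling, quantile normalization, normexp (offset 50, on the median signal, since no mean signal was given), the authors' table, other filters and probe rules, a single knock-down group, the methods' paired t-test, and each siRNA or array left out.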

Additional observations from a re-analysis of the deposited data

Results flagged for a closer look

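For 518 genes, effects of different knock-downs against the same control arrays went in opposite directions, with at least 1.5-fold and a limma call on each side. The difference among knock-downs was tested by limma's F test. The 4 genes with the widest differences were well above background on all 12 arrays. The highest knock-down of CSRP3 was 75.1 times the lowest (F test adjusted p = 3.93e-10). For CCL4 this value was 56.7 (adjusted p = 3.24e-10), for CLDN4 48.2 (adjusted p = 3.77e-10) and for AQP1 26.0 (adjusted p = 4.12e-10). GLE1 knock-down was the highest in all 4, IPPK knock-down the lowest in CSRP3, CLDN4 and AQP1, and DBP5 knock-down the lowest in CCL4. The second probe of CCL4 gave ratios of 0.699, 43.3 and 1.58, in the order DBP5, GLE1, IPPK, and that of AQP1 gave 0.901, 1.92 and 0.860. Groups of 3 arrays are too small to look for single arrays that stand apart.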

How the results depend on the processing

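The numbers of genes lower and higher in the pooled contrast were 6331 and 6040, and 2576 and 2852 when the 9 knock-down arrays formed a single group, where the spread includes differences between siRNAs. The methods' t-test (paired) gave 5747 and 5423 at its unadjusted threshold and 4239 and 4063 after Benjamini-Hochberg adjustment. The numbers lower and higher in common, 840 and 1116, were 465 and 717 with normexp, 496 and 684 with the processed values of the authors, and 272 and 421 at 2-fold in each knock-down. With a siRNA left out, the rule asks less: lower in common were 1290 genes without the DBP5, 1247 without the GLE1 and 1428 without the IPPK siRNA arrays, and higher in common 1528, 1590 and 1685. By even amounts 553, 628 and 686 were lower and 816, 974 and 917 higher, and 9835 differed among knock-downs without the GLE1 siRNA arrays. With the replicate block, 6750 genes were lower and 6414 higher in the pooled contrast, 847 and 1117 in common and 209 and 379 by even amounts, and the block changed no pooled call of the genes checked. The counts kept within 1.5-fold under the other scalings, filters and probe rules and with each array left out. Even calls depended more on the setting in which genes they held: 117 of the 191 genes lower and 248 of the 359 higher were shared with the processed values of the authors. Of 41 even genes checked, 38 stayed even there (not DRD1, FOS and ATR) 38 with 75th percentile scaling (not EREG, DRD1 and SMURF2), 39 with quantile normalization (not HNMT and DRD1) and 39 with normexp (not DRD1 and FOS).

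Without the GLE1 siRNA arrays the pooled log2 fold change turned to -0.88 for CSRP3, -0.13 for CCL4 and -1.34 for CLDN4, and without the IPPK siRNA arrays to 0.93 for AQP1. In the fit with a single knock-down group 29 of the genes checked lost the pooled call. In other alternatives 8 did: CLDN4, AQP1, CCL4, ORC5, PRIM2, RPS24, RANBP2 and MALAT1. The call of CLDN4 was lost with 75th percentile scaling, quantile normalization and no filter on dim probes (adjusted p = 0.0672, 0.0874 and 0.0712), without any 1 of the control arrays and without most single arrays of the knock-downs. That of AQP1 was lost with the mean of its probes (limma adjusted p = 0.884), without the DBP5 siRNA arrays (limma adjusted p = 0.0806) and without control array 1 or 2. Medians of 23 of the 24 lists kept their sign under the other scalings, all but that of ribosomal proteins, and 20 kept it under every alternative, where those of NF-kappaB subunits, mRNA export factors and lysosome genes turned as well. Signal over background limits the ratios of dim probes, such as those of KLK12, TRIM15, CNTN1 and DRD1.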
